A study of Drosophila melanogaster with 24 samples.

Results

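The Activin branch of TGF-beta signalling was followed in adult testes of *Drosophila melanogaster* after knockdown of *Set1*, which encodes a histone H3K4 methyltransferase. Its 7 genes were taken by symbol, whatever their values: the ligand genes *daw*, *myo*, *mav* and *Actbeta*, the gene of the secreted binding protein follistatin (*Fs*), the type I receptor gene *babo* and the Smad gene *Smox*. These are 7 of 13395 genes listed on at least 1 day, and all 7 were listed on each of the 4 days, as were 12254 genes in all. In *Set1* KD males, a nos-Gal4 driver that is active in early germ cells expressed a UAS-set1 RNAi transgene. In Ctrl KD males, labelled WT in the genotype label, the same driver expressed a UAS-mCherry RNAi transgene, so both groups carried the driver and an RNAi transgene. Crosses were kept at 18°C, and adult males were aged at 25°C for 0, 1, 3 or 5 days after eclosion. Polyadenylated RNA was sequenced from 3 *Set1* KD and 3 Ctrl KD libraries a day, 24 libraries in all. Each library pooled about 15 testis pairs, which had been digested to single cells and filtered.

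In flies, Activin ligands bind the type I receptor Baboon together with a type II receptor, Punt or Wishful thinking. Baboon then phosphorylates the receptor Smad named Smox, which enters the nucleus with the co-Smad Medea and regulates transcription. Follistatin binds Activin ligands outside the cell and hinders them. The branch is known mainly from neuronal remodelling, growth, metabolism and muscle, whereas in the testis niche it is the sister BMP branch, with Dpp and Gbb as ligands, that is known to maintain germline stem cells.

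The authors' deposited tables hold, for each gene and day, the mean normalized count over the 6 libraries, and a log2 fold change (*Set1* KD over Ctrl KD) beside its standard error and p-value. Values per library are not in these tables, so group means were derived from the mean count and the fold change and carry no error of their own; the spread between libraries enters through the standard error (SE, n = 3 libraries per group). Each day was normalized apart from the others, so group means are compared within a day and a level of 1 day is not on the same scale as that of another. A gene was called when its Benjamini-Hochberg adjusted p, over all genes of that day, was under 0.05. The mean normalized counts of a day summed to between 16183460 and 22304872, and the median SE of a log2 fold change was between 0.22 and 0.26. The targeted transcript, *Set1*, was called lower on day 1 only, at a log2 fold change of -0.50 (adjusted p = 0.0473) and was between -0.42 and -0.26 on the other days. The labels name the material germ cells. All 14 spermatocyte and all 14 late germ cell markers were listed on each day, but so were all 8 markers of the somatic cyst lineage, all 5 of the hub, all 10 of muscle and 6 of 7 of hemocytes (*He* was not listed). RNA of somatic cells was thus present beside that of germ cells.

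Of the 28 values of the 7 genes over the 4 days, 27 were above 0 and 14 were called higher in *Set1* KD, with none called lower, although *babo*, *Smox*, *mav* and *Actbeta* were below 0 on some or all days when the scale was set by ribosomal protein genes. On day 0, 2 of 7 were called higher (*daw* and *myo*), beside 14.7% of all genes, and 0 lower, beside 15.7%. On day 1, 2 of 7 were called higher (*daw* and *Fs*), beside 15.2%, and 0 lower, beside 17.6%. On day 3, 5 of 7 were called higher (*daw*, *myo*, *Fs*, *babo* and *Smox*), beside 28.9%, and 0 lower, beside 28%. On day 5 the same 5 genes were called higher, beside 24.4% of all genes, and 0 lower, beside 25.6%. The median log2 fold change of the 7 genes was 0.61, 0.60, 0.99 and 1.12 on days 0, 1, 3 and 5, against 0.02, -0.00, 0.03 and 0.00 for all genes. When a log2 fold change of at least 1.3 was also required, 1, 1, 3 and 2 of the 7 were called. In the authors' DESeq2 test at an unadjusted p under 0.05, 4, 3, 5 and 6 of the 7 were higher and 0 lower on days 0, 1, 3 and 5. Shares of all genes at these thresholds were not computed here, so these counts are not read as an excess or a lack. In bulk RNA of this kind, a change in the share of a cell type and a change of RNA per cell cannot be told apart.

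**Figure D1:**
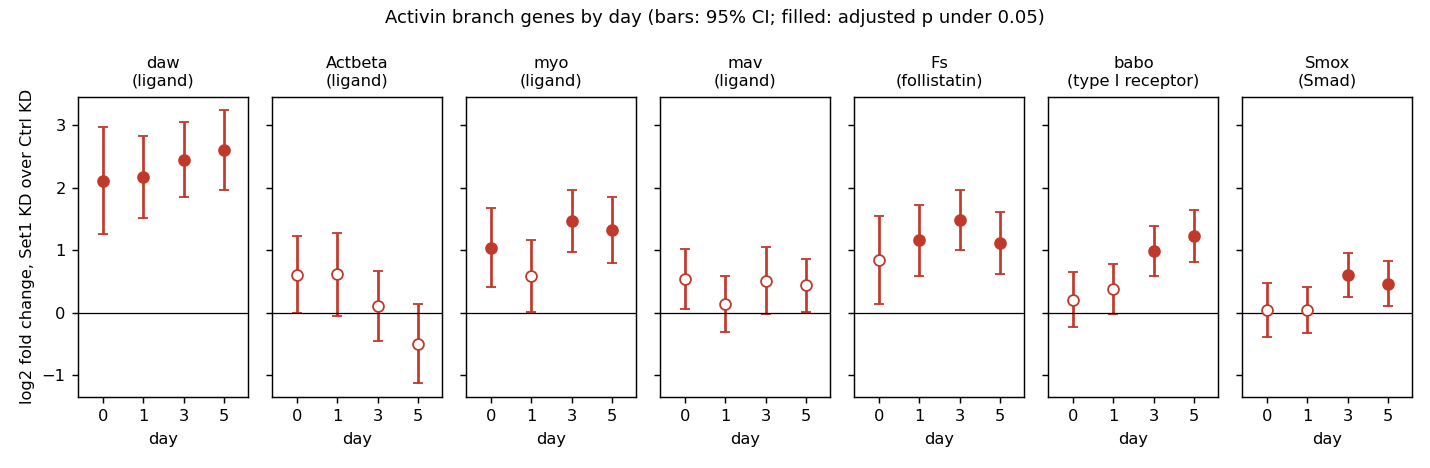
Log2 fold change (y axis, *Set1* KD over Ctrl KD) by day after eclosion (x axis) for the 7 Activin branch genes, 1 panel per gene, with bars for the 95% confidence interval and filled points for an adjusted p under 0.05. *daw* was called on all 4 days, at 2.11 to 2.61, *babo* and *Smox* on days 3 and 5 only, and *mav* and *Actbeta* on none; on a scale set by ribosomal protein genes, *babo* was called on no day and *Smox* was below 0 on each.

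The ligand gene *daw* (chromosome arm 2L, 2805261 to 2812376, plus strand, BDGP6 assembly) showed the largest change of the 7 on every day. Dawdle is a secreted Activin-like ligand known in larvae from motor axon guidance and from sugar and nutrient metabolism. Its derived mean was 73.5, 129.9, 207 and 149 normalized counts in *Set1* KD testes on days 0, 1, 3 and 5, against 17.0, 28.7, 37.9 and 24.5 in Ctrl KD testes. The *Set1* KD mean was thus several times the Ctrl KD mean on each day. On the log2 scale the change was 2.11 on day 0 (SE 0.44, adjusted p = 2.63e-05), 2.18 on day 1 (SE 0.34, adjusted p = 3.83e-09), 2.45 on day 3 (SE 0.31, adjusted p = 4.37e-14) and 2.61 on day 5 (SE 0.32, adjusted p = 9.62e-14). This is 4.33-fold on day 0, with a 95% confidence interval of 2.39 to 7.85, and 6.09-fold on day 5, with an interval of 3.92 to 9.47. On each day, 97.0% to 99.3% of all genes had a lower log2 fold change, and on day 5 only 14 of the other listed genes of arm 2L were higher. *daw* was the only member called on all 4 days. A difference in its change between days was not resolved, as the estimate for days 3 and 5 minus that for days 0 and 1 was 0.37 (95% confidence interval -0.31 to 1.05, adjusted p = 0.457).

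The ligand gene *myo* (chromosome 4, 690686 to 696055, minus strand) rose on 3 of the 4 days. Myoglianin is the fly counterpart of myostatin, known from glia and muscle. It had 518, 553, 994 and 890.3 normalized counts in *Set1* KD testes on days 0, 1, 3 and 5, against 251, 366, 358 and 356 in Ctrl KD testes. The *Set1* KD mean was the higher one on each day, and the gap was narrowest on day 1. This gave a log2 fold change of 1.04 on day 0 (SE 0.33, adjusted p = 0.00740) and 0.60 on day 1 (SE 0.29, adjusted p = 0.106). On day 3 it was 1.47 (SE 0.26, adjusted p = 8.18e-08) and on day 5 it was 1.32 (SE 0.27, adjusted p = 8.92e-06). The later days exceeded the earlier ones by 0.60 (95% confidence interval 0.04 to 1.17), which did not pass after adjustment (adjusted p = 0.116).

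*mav* (chromosome 4, 623219 to 626031, minus strand), the gene of the divergent TGF-beta family ligand Maverick, was called on no single day, and at an unadjusted p under 0.05 it passed on days 0 and 5. It had 255, 291, 355 and 278 normalized counts in *Set1* KD testes, against 176, 265, 249 and 205 in Ctrl KD testes. The *Set1* KD mean was thus the higher one on each day, but its adjusted p was under the threshold on none. Its log2 fold change was 0.54 (SE 0.24, adjusted p = 0.0772), 0.14 (SE 0.23, adjusted p = 0.680), 0.51 (SE 0.27, adjusted p = 0.0993) and 0.44 (SE 0.21, adjusted p = 0.0759) on days 0, 1, 3 and 5.

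*Actbeta* (chromosome 4, 1077331 to 1084796, minus strand), whose product is the fly Activin beta known from neurons, was the only member with a value below 0 on the deposited scale. It had 67.8, 60.7, 63.0 and 50.2 normalized counts in *Set1* KD testes, against 44.3, 39.7, 58.6 and 70.7 in Ctrl KD testes. The *Set1* KD mean was the higher one up to day 3 and the lower one on day 5. Log2 fold changes were 0.61 (SE 0.32, adjusted p = 0.132), 0.61 (SE 0.34, adjusted p = 0.151), 0.10 (SE 0.29, adjusted p = 0.772) and -0.49 (SE 0.32, adjusted p = 0.194) on days 0, 1, 3 and 5, so it was called on no day and at an unadjusted p under 0.05 on none. The later days minus the earlier ones gave -0.77 (95% confidence interval -1.39 to -0.16, adjusted p = 0.0661), short of the threshold, but on a scale set by ribosomal protein genes they gave -1.29 (adjusted p = 2.16e-04). At about 50 to 61 counts averaged over the 6 libraries it was also among the least abundant members, and its SE of 0.29 to 0.34 exceeded that of *babo* and *Smox* on each day.

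The transcripts of the 4 ligand genes were also compared as levels, in mean normalized counts per kilobase of merged exon. Their sum was 266, 303, 462 and 386 in *Set1* KD testes on days 0, 1, 3 and 5, against 145, 209.5, 210.0 and 192 in Ctrl KD testes. The *Set1* KD sum was therefore 1.83, 1.45, 2.20 and 2.01 times that of Ctrl KD, and 1.33, 1.09, 1.16 and 1.01 times when the scale was set by ribosomal protein genes. *myo* and *mav* made up most of the sum in both groups on every day. The share of *daw* was 8.47% to 13.7% of the sum in *Set1* KD, against 3.58% to 5.52% in Ctrl KD. The share of *mav* was 26.6% to 35.5% in *Set1* KD, against 39.4% to 46.7% in Ctrl KD. The share of *Actbeta* was 6.95%, 5.46%, 3.71% and 3.54% in *Set1* KD on days 0, 1, 3 and 5, against 8.31%, 5.16%, 7.60% and 10.0% in Ctrl KD. These shares are a description without a test.

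**Figure D2:**
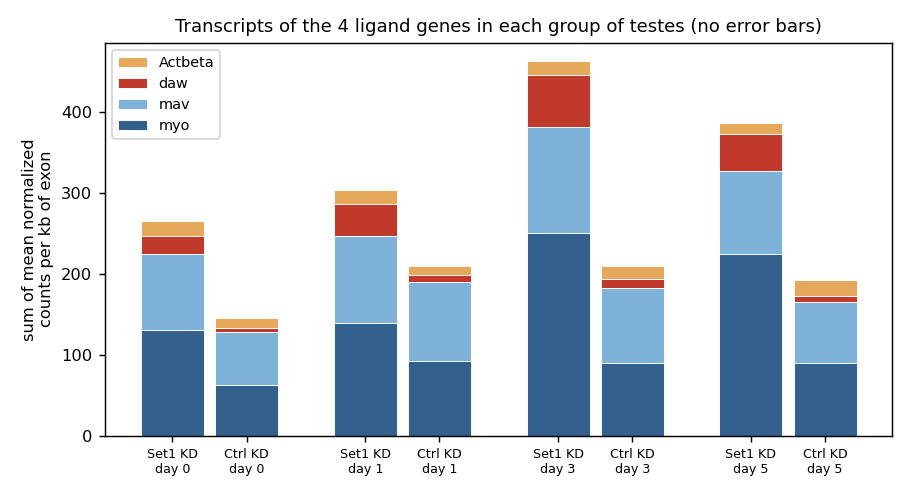
Summed transcript level of the 4 ligand genes, in mean normalized counts per kilobase of exon (y axis), in *Set1* KD and Ctrl KD testes on each day (x axis), with 1 colour per gene and no error bars because the values are derived group means. The *Set1* KD bar was 1.45 to 2.20 times as high as the Ctrl KD bar of the same day (1.01 to 1.33 times on a scale set by ribosomal protein genes), and most of each bar came from *myo* and *mav*.

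The gene of the inhibitor, *Fs* (chromosome arm 2R, 15223560 to 15241589, minus strand), changed in the same direction as *daw* and *myo*. It had 81.9, 117, 222 and 159.7 normalized counts in *Set1* KD testes on days 0, 1, 3 and 5, against 45.4, 52.4, 79.2 and 73.3 in Ctrl KD testes. The *Set1* KD mean was the higher one on each day. Its log2 fold change was 0.85 on day 0 (SE 0.36, adjusted p = 0.0565) and was not called. It was 1.16 on day 1 (SE 0.29, adjusted p = 4.52e-04), 1.49 on day 3 (SE 0.24, adjusted p = 1.31e-08) and 1.12 on day 5 (SE 0.25, adjusted p = 6.21e-05). The days were not resolved from each other, with 0.27 for days 3 and 5 minus days 0 and 1 (95% confidence interval -0.29 to 0.83, adjusted p = 0.508).

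The exons of *Fs* are shared in part with genes on the opposite strand, so its reads are less certain than those of the other members. The protein-coding gene *CG8079* covers 821 of its 3561 exon bases (23.1%) and the antisense RNA gene *asRNA:CR44370* covers 249 (6.99%). The libraries were made with a kit that keeps strand, but whether counting used it is not given in the sources used here. *CG8079* was called higher on all 4 days, at log2 fold changes of 0.62, 0.66, 0.71 and 0.75, each below that of *Fs* on the same day. *asRNA:CR44370* was far more abundant, with 4912 to 8285 normalized counts in *Set1* KD and 10681 to 17224 in Ctrl KD, and it was called lower on all 4 days, at -1.12, -1.06, -1.28 and -1.30, opposite in direction to *Fs*. How many reads of either gene were counted on *Fs* was not tested. *Smox* shared 6 exon bases with *CG2120*, and the other 5 members shared none with an annotated gene.

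The type I receptor gene *babo* (chromosome arm 2R, 8952339 to 8962796, plus strand) was called higher on the later days only, and on the deposited scale it was the only member whose change differed between days in a test of the difference. It had 252, 327, 446 and 409 normalized counts in *Set1* KD testes on days 0, 1, 3 and 5, against 218, 251, 225 and 175 in Ctrl KD testes. On day 0 the group means were close to each other, and on day 5 the *Set1* KD mean was 2.34 times that of Ctrl KD (95% confidence interval 1.75 to 3.12). The log2 fold change was 0.21 on day 0 (SE 0.22, adjusted p = 0.516) and 0.38 on day 1 (SE 0.21, adjusted p = 0.145). It was 0.99 on day 3 (SE 0.20, adjusted p = 5.15e-06) and 1.22 on day 5 (SE 0.21, adjusted p = 1.33e-07). Fewer genes of its arm stood above it with time: 960 of 2538 listed genes of arm 2R had a larger log2 fold change on day 0, and 210 of 2517 on day 5. The 3 annotated transcripts of *babo*, which in flies differ in the part of the receptor that meets the ligand, were not separated in these tables.

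For *babo*, days 3 and 5 together gave a log2 fold change of 1.10 and days 0 and 1 together gave 0.30. The difference was 0.80 (SE 0.21, 95% confidence interval 0.39 to 1.21, adjusted p = 0.00398 over the 12238 genes tested on all 4 days). In this test 8.91% of all genes were called with a larger change on the later days and 8.8% with a smaller one, and 1 of the 7 members was called larger and 0 smaller. At an unadjusted p under 0.05, *Smox* and *myo* also passed as larger and *Actbeta* as smaller. The shares of all genes at that threshold are not given, and the shares above do not apply to it. A test of any difference over the 4 days (Cochran's Q, 3 degrees of freedom) called *babo* as well (Q = 15.4, adjusted p = 0.0362), beside 5.25% of all genes. Of the 6 pairs of days, *babo* differed between days 0 and 5 (1.02, SE 0.31, adjusted p = 0.0328), a pair for which 1.27% of all genes were called with a larger change on day 5. The call rested on both ends of the series. Without day 0 the difference was 0.72 (adjusted p = 0.0701) and without day 5 it was 0.69 (adjusted p = 0.0807). On a scale set by ribosomal protein genes it was 0.27 (adjusted p = 0.299), and *Actbeta* was the member called instead, at -1.29.

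The Smad gene *Smox* (chromosome X, 8137041 to 8142279, minus strand) had the highest average level of the 7 per kilobase of exon and a small change. It had 653, 913, 1203 and 951 normalized counts in *Set1* KD testes on days 0, 1, 3 and 5, against 634, 885, 791 and 689 in Ctrl KD testes. The groups were level on the early days and apart on the later ones. The log2 fold change was 0.04 on day 0 (SE 0.22, adjusted p = 0.906) and 0.05 on day 1 (SE 0.19, adjusted p = 0.881). It was 0.60 on day 3 (SE 0.18, adjusted p = 0.00203) and 0.46 on day 5 (SE 0.18, adjusted p = 0.0253). The later days minus the earlier ones gave 0.49 (95% confidence interval 0.11 to 0.87), with an adjusted p of 0.0556.

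Per kilobase of exon, the 7 genes ranked in the order *Smox*, *myo*, *mav*, *babo*, *Fs*, *daw* and *Actbeta*, with averages over the days and both groups of 186, 135, 95.8, 56.3, 29.2, 25.6 and 15.5 normalized counts per kilobase. These averages and ranges run over days that were normalized apart. Neighbours in this order were not always apart. *Smox* (142 to 221 over the days) overlapped *myo* (96.8 to 170.2), and *myo* overlapped *mav* (79.6 to 112). *babo* (46.0 to 65.6) was apart from *mav* above it and from *Fs* (17.9 to 42.3) below it. The range of *daw* (13.9 to 37.5) overlapped those of *Fs* and *Actbeta* (13.7 to 16.6), which did not overlap each other. Within each single day, averaged over both groups, *Smox* stood above *myo* and *myo* above *mav*. By group, *daw* averaged 42.8 in *Set1* KD and 8.27 in Ctrl KD, so it stood above *Actbeta* (16.5) in *Set1* KD and below it (14.5) in Ctrl KD. *myo* and *mav* were close in Ctrl KD, at averages of 83.8 and 82.7, and *mav* was the higher one there on days 0, 1 and 3. On day 5 in *Set1* KD, *myo* (224.2) stood above *Smox* (210.3). With the length of the longest transcript in place of merged exons, the order of the 7 averages was kept.

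**Figure D3:**
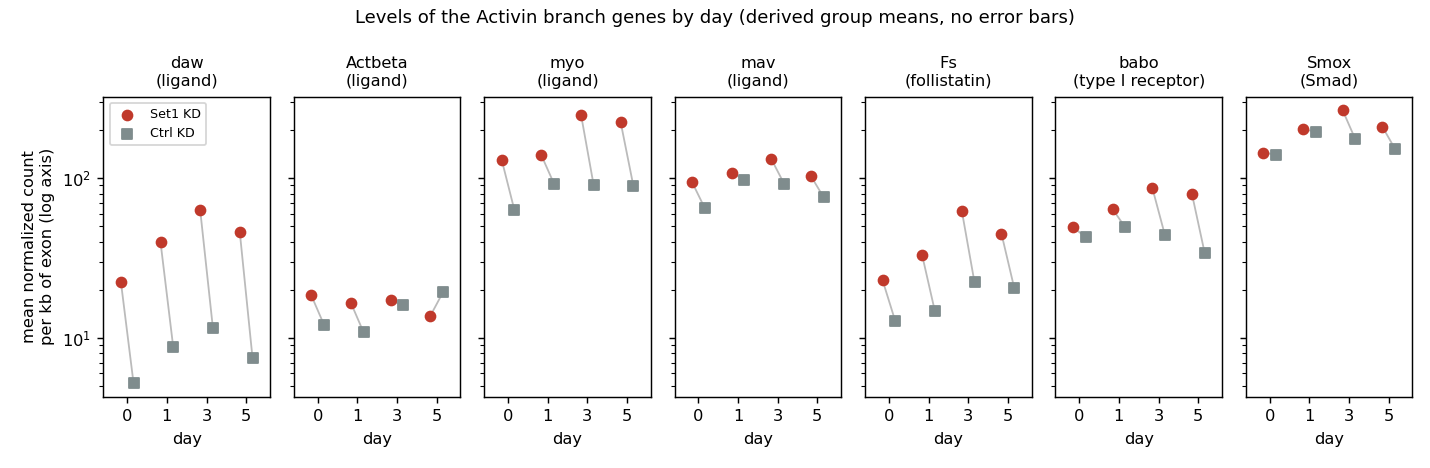
Derived mean normalized counts per kilobase of exon (log y axis) in *Set1* KD (circles) and Ctrl KD (squares) testes by day (x axis), 1 panel per gene, with a line joining the groups of a day and no error bars. *Smox* and *myo* were the most abundant on average over the groups and days, but in Ctrl KD *mav* stood above *myo* on days 0, 1 and 3. *daw* showed the widest gap between groups on each day, and *Actbeta* was the only gene with the Ctrl KD point above the *Set1* KD point, on day 5.

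Since no library was shared between days, the 4 log2 fold changes of a gene were combined with inverse-variance weights. The combined change was 2.37 for *daw* (SE 0.17, 95% confidence interval 2.04 to 2.71, adjusted p = 4.60e-42), 1.21 for *Fs* (SE 0.14, adjusted p = 2.21e-17), 1.15 for *myo* (SE 0.14, adjusted p = 3.50e-15) and 0.72 for *babo* (SE 0.11, adjusted p = 4.45e-11). The intervals of *Fs* (0.94 to 1.48) and *myo* (0.87 to 1.42) overlapped, and that of *daw* lay above both. It was 0.39 for *mav* (SE 0.12, adjusted p = 0.00154) and 0.32 for *Smox* (SE 0.10, adjusted p = 0.00148). *Actbeta*, at 0.20 (SE 0.16, 95% confidence interval -0.11 to 0.51, adjusted p = 0.249), was the member not called. Thus 6 of 7 were called higher, beside 35.4% of all genes, whereas on a scale set by ribosomal protein genes 3 were called higher (*daw*, *myo* and *Fs*), 3 lower (*Smox* at -0.41, *Actbeta* at -0.52 and *mav* at -0.30), and *babo*, at 0.0094, was not called (adjusted p = 0.937). The share of all genes called on the ribosomal protein scale is not given. For *daw* the combined change on the deposited scale corresponds to 5.18-fold, and 99.1% of the 12238 genes had a lower value. *Smox* was no longer called without day 3 (0.21, adjusted p = 0.102), and *Actbeta* was called without day 5 (0.41, adjusted p = 0.0339).

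**Figure D4:**
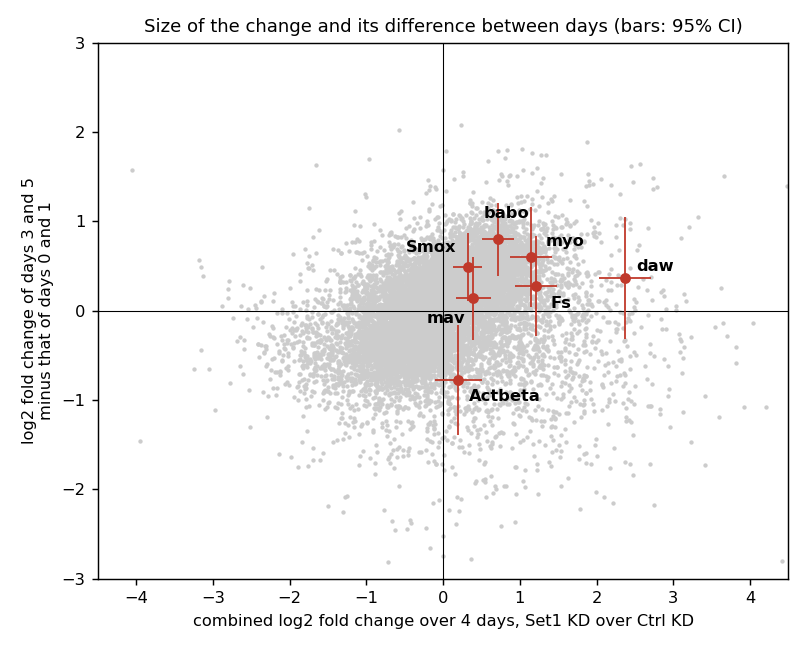
Combined log2 fold change over the 4 days (x axis) against the log2 fold change of days 3 and 5 minus that of days 0 and 1 (y axis), for all genes listed on all 4 days (grey) and the 7 Activin branch genes (red, with 95% confidence intervals); 4 genes lie outside the axes. *daw* stood at the right at 2.37, *babo* was the highest of the 7 on the y axis at 0.80, and *Actbeta* was the only one below 0 on it, at -0.77.

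The scale of these values depends on what is taken as unchanged. The general cytoplasmic ribosomal protein genes had a median log2 fold change of 0.46, 0.41, 0.93 and 0.99 on days 0, 1, 3 and 5 (90 genes), whereas the median of genes with a mean count of at least 10 was within 0.02 of 0 on each day. Relative to the ribosomal protein genes, *daw* remained higher on all 4 days, at 1.65, 1.77, 1.52 and 1.61. *Fs* stayed called on days 1 and 3, at 0.75 and 0.56, and was at 0.13 on day 5. *myo* stayed called on day 3, at 0.54 (adjusted p = 0.0491). *babo* was at -0.25, -0.03, 0.06 and 0.23 and was called on no day. *Smox* was below 0 on all 4 days, at -0.42, -0.36, -0.32 and -0.53, and was called lower on day 5. *Actbeta* was called lower on days 3 and 5, at -0.82 and -1.49, and *mav* on day 5, at -0.56. On this scale 1, 2, 3 and 1 of the 7 genes were called higher and 0, 0, 1 and 3 lower on days 0, 1, 3 and 5. The centring lowers every gene of a day by the same amount, so it moves all genes towards lower calls, not these 7 alone. The share of all genes called on this scale is not given, here or for the lists below. Which scale is nearer to RNA per testis was not tested.

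Of the 4 ligand genes, 3 (*myo*, *mav* and *Actbeta*) lie on the small chromosome 4, so they were read beside its other genes. The median log2 fold change of that chromosome was 0.25, 0.08, 0.40 and 0.27 on days 0, 1, 3 and 5, from 89 or 90 genes a day. The share of its genes called higher was 23.6%, 16.9%, 37.8% and 38.2%, and the share called lower was 7.87%, 18.0%, 20.0% and 19.1%. *mav* was near the middle of its chromosome, with 54.4% to 64.0% of the genes below it. *myo* stood higher, with 6 genes of the chromosome above it on day 3 and 7 on day 5. *Actbeta* had 26 genes above it on day 0 and 71 on day 5. *Smox* lies on chromosome X, where the median was 0.19, 0.14, 0.19 and 0.23, and it was below that median on days 0 and 1 and above it on days 3 and 5.

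**Figure D5:**
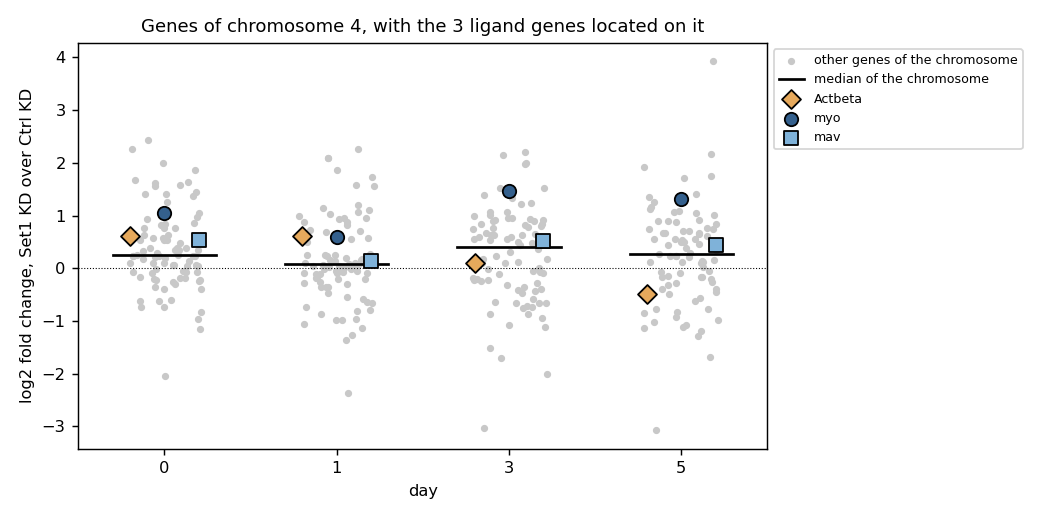
Log2 fold change (y axis, *Set1* KD over Ctrl KD) by day (x axis) for the genes of chromosome 4 (grey points, black line at their median), with *Actbeta*, *myo* and *mav* marked. *myo* had a value of 1.47 on day 3, with 6 genes of the chromosome above it, *mav* stayed near the median, and *Actbeta* was at -0.49 on day 5.

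A list of 4 receptor and Smad genes, used by both branches or, for *Mad*, by the BMP branch, had 2, 2, 3 and 3 genes called higher and 0 lower on days 0, 1, 3 and 5, also 0 lower at an unadjusted p under 0.05; on the ribosomal protein scale 0, 0, 1 and 1 (*wit*) were higher and 1 (*Mad*) lower on each day. Of all genes on the deposited scale, 14.7%, 15.2%, 28.9% and 24.4% were called higher and 15.7%, 17.6%, 28% and 25.6% lower on these days. The type II receptor genes accounted for the early calls of the list. *wit* had 166, 272, 424 and 297 normalized counts in *Set1* KD testes, against 97.9, 153, 127 and 85.9 in Ctrl KD testes, with log2 fold changes of 0.76, 0.84, 1.74 and 1.79. *put* was at 0.69, 0.66, 1.26 and 1.19. Both type II receptor genes were called on all 4 days, and like *babo* both had a larger change on the later days (0.96, adjusted p = 0.00359 for *wit*; 0.55, adjusted p = 0.0375 for *put*). On the ribosomal protein scale this difference was 0.44 for *wit* (adjusted p = 0.144) and 0.02 for *put* (adjusted p = 0.944). *Med*, the co-Smad gene of both branches, was called on days 3 and 5, at 0.80 and 0.96. *Mad*, the BMP Smad gene, was at -0.05, 0.01, 0.03 and -0.00 and was called on no day; its combined change was -0.00 (SE 0.08, adjusted p = 0.993).

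Among 7 further genes that belong to the BMP branch alone, 6 were listed on each day (*scw* was not), and 3, 2, 4 and 4 were called higher and none lower, also at an unadjusted p under 0.05, against 1, 0, 1 and 1 (*Dad*) higher and 1, 1, 2 and 2 (*sax* and *Smurf*) lower on the ribosomal protein scale. The deposited-scale counts stand beside 14.7%, 15.2%, 28.9% and 24.4% of all genes called higher and 15.7%, 17.6%, 28% and 25.6% lower. *Dad*, the inhibitory Smad gene that BMP signalling itself induces, was called on all 4 days at 1.07, 0.83, 1.68 and 1.46. *dpp*, a BMP ligand gene, was at 0.89, 0.83, 1.46 and 1.22, also called on all 4 days. *gbb* was called on days 0, 3 and 5, at 0.59, 0.70 and 0.68, and the type I receptor gene *tkv* on days 3 and 5, at 0.62 and 0.66. The median of the listed genes was 0.36, 0.20, 0.66 and 0.67, against 0.61, 0.60, 0.99 and 1.12 for the 7 Activin branch genes, a description without a test.

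Of 11 genes for proteins that process or bind TGF-beta family ligands outside the cell, 10 were listed, and 5, 5, 7 and 7 were called higher and 0, 0, 1 and 2 lower (*sog* on days 3 and 5, *tok* on day 5), against 1, 1, 0 and 0 (*tld*) higher and 0, 0, 2 and 2 lower on the ribosomal protein scale. The deposited-scale counts stand beside 14.7%, 15.2%, 28.9% and 24.4% of all genes called higher and 15.7%, 17.6%, 28% and 25.6% lower. *Fur1*, which encodes a furin protease of the kind that cleaves ligand precursors, was called on all 4 days at 0.69, 0.54, 0.78 and 0.73. *Fur2* was called on days 3 and 5 at 1.05 and 0.88. *plum*, whose product acts upstream of Activin signalling in neurons, was called on days 0, 3 and 5 at 0.85, 1.27 and 1.14. The BMP-binding protein genes *cv* and *cv-2* were called on 4 and 3 days, with combined changes of 1.05 and 1.01. *tld*, a metalloprotease gene, was called on days 0 and 1 at 2.46 and 2.75, from 22.5 and 40.2 normalized counts in *Set1* KD against 4.08 and 5.99 in Ctrl KD.

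Of 7 Smad partners and adaptors, all listed, 0, 1, 3 and 3 were called higher and none lower, against 0 higher and 2, 1, 3 and 3 lower on the ribosomal protein scale. *Smurf* is in this list as well as in the BMP list, so its lower calls on that scale on days 3 and 5 are counted in both. For this list and the next, 14.7%, 15.2%, 28.9% and 24.4% of all genes were called higher on the deposited scale. The shares called lower were 15.7%, 17.6%, 28% and 25.6%. At an unadjusted p under 0.05, *Snoo* was higher and *MAN1* lower on day 0, and *MAN1* was lower on day 3. *Sara*, which presents receptor Smads to their receptor, was called on days 1, 3 and 5 at 0.62, 0.81 and 0.86, and *emb*, a nuclear exportin gene, on days 3 and 5 at 0.89 and 1.07. Finally, 7 genes taken here as reported targets or effectors of Activin signalling were all listed. Of these, 4, 1, 5 and 5 were called higher and 1 lower on each day. On the ribosomal protein scale 0 were higher and 1, 1, 3 and 2 lower. The list does not hold the direction in which Activin signalling moves each gene, so its counts are no measure of pathway output. *EcR*, the ecdysone receptor gene that Activin signalling controls in remodelling neurons, was called on all 4 days at 0.68, 0.84, 1.20 and 1.27. *foxo*, a transcription factor gene of the insulin pathway, was called on days 0, 3 and 5 at 0.87, 0.89 and 0.73. *pdgy*, an acyl-CoA synthetase gene, was called on the same days at 0.54, 0.93 and 0.88, as was *Atg8a*, an autophagy gene, at 0.46, 0.45 and 0.50. The insulin receptor gene *InR* was called on days 3 and 5, at 0.71 and 0.65. The gene lower on each day was *Ilp8*, an insulin-like peptide gene, at -1.05, -0.78, -1.26 and -1.19.

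Markers of several cell types also differed between the groups, and are given on the deposited scale only. The sums of a list are led by its most abundant markers. The counts called therefore stand beside each ratio of summed normalized counts (*Set1* KD over Ctrl KD, within a day). For all marker lists, 14.7%, 15.2%, 28.9% and 24.4% of all genes were called higher on days 0, 1, 3 and 5. The shares called lower were 15.7%, 17.6%, 28% and 25.6%. The 14 late germ cell markers summed to 206474 to 336212 in *Set1* KD over the days, against 322583 to 441546 in Ctrl KD, at ratios of 0.574 to 0.773, with 3, 4, 13 and 13 called lower and 0 higher on days 0, 1, 3 and 5, also 0 higher at an unadjusted p under 0.05. The 14 spermatocyte markers were at ratios of 0.612 to 0.822, with 5, 7, 11 and 7 called lower and 1 (*Taf12L*) higher on each day. The 8 early germline markers stood at 0.785, 0.853, 1.32 and 1.23 on days 0, 1, 3 and 5, with 1, 3, 6 and 4 called higher and 2 (*bgcn* and *dhd*) lower on each day. These early germline ratios were above 1 on days 3 and 5 only, and a link to the change of any member was not tested. The 8 cyst lineage markers stood at 0.959 to 1.12, with 2, 3, 3 and 3 called higher and 0, 0, 1 and 1 lower (*chinmo* on day 3, *so* on day 5). On days 3 and 5 the higher cyst lineage markers were *tj* (1.60 and 1.57), *Wnt4* (1.12 and 1.18) and *piwi* (1.54 and 1.41), on the log2 scale. The 5 hub markers stood at 0.623 to 0.744, with 3, 3, 3 and 2 called lower and 0, 0, 1 and 1 (*shg*) higher.

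Of the 7 hemocyte markers, 6 were listed, at sums of 1760 to 5885 in *Set1* KD, against 1145 to 2866 in Ctrl KD. The ratios were 1.41 to 2.63, the highest on day 3, with 2, 1, 5 and 2 called higher and 0 lower, and 1 was lower on day 0 at an unadjusted p under 0.05. Only *crq* was called on all 4 days, and the median log2 fold change of the list was 0.60, 0.12, 0.89 and 0.43. *Hml* and *NimC1*, defining hemocyte markers, were not at 0 in either group. The 4 listed of 5 fat body markers (*Yp1* was not listed) stood at ratios of 1.35 to 2.06, with 2, 2, 2 and 1 called higher and 0, 1, 1 and 1 lower. Much of that sum came from *FASN1*, at 4773 normalized counts in *Set1* KD and 1233 in Ctrl KD on day 3, whereas *apolpp* was called lower on days 3 and 5 (-0.67 and -0.84) and *Lsp2* on day 1 (-1.61). The 4 listed of 5 nervous system markers (the glial marker *repo* was not listed) stood at 1.04 to 1.37, with 3, 1, 3 and 2 called higher and 0, 0, 0 and 1 lower. The 10 muscle markers stood at 0.744 to 1.26, with 0, 0, 0 and 5 called higher and 0, 2, 0 and 0 lower. The 3 or 4 listed of 4 pigment cell and terminal epithelium markers were at 1.17 to 1.68, with 1, 1, 1 and 2 called higher and 1 (*w*) lower on each day. Of the 5 accessory gland markers, 2 to 5 were listed, at 0.361 to 1.59, with 0, 0, 1 and 0 called in each direction. The part of these cell types in the changes of *daw*, *myo*, *Fs*, *babo* and *Smox* was not tested.

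For the 3 members with the largest combined change, the genes with the most similar values over the 4 days were sought among 9696 genes with a mean count of at least 50 on each day, by the root mean square difference of the log2 fold changes. For *daw* these were *Pif1* (0.24), *CG10132* (0.28) and *CG9631* (0.29). For *Fs* they were *Mcm3* (0.09), *CG11837* (0.11) and *tyn* (0.11). For *myo* they were *for* (0.04), *CG9297* (0.06) and *ClC-a* (0.07). The distances were larger for *daw* than for *Fs* and *myo*.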

How the data were processed

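RNA-seq was made from testes of 24 fly samples, 3 *Set1* KD and 3 Ctrl KD on each of 4 days. The authors aligned reads with Bowtie2 2.5.1 to BDGP6 (dm6), counted them on genes with featureCounts and ran DESeq2 with default settings per day on that day's 6 libraries. For each gene, the deposited tables give a mean normalized count (a signal divided by the authors' size factors), and none holds a value per library. They also hold the authors' own comparisons, which were read as deposited because nothing else gives the change: a log2 fold change with its standard error on the log2 scale, a Wald score, and p-values before and after Benjamini-Hochberg adjustment. Each deposited log2 fold change divided by its standard error gives the deposited score, which alone does not show whether the values were shrunken. The paper describes the replicates as independent, each made from about 15 testis pairs.

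Computed here, with Python 3.11.15, numpy 2.4.6, scipy 1.17.1 and pandas 2.3.3, were derived group means, levels per 1000 bases of merged exon (Ensembl annotation of BDGP6, matched by symbol for all 7 members), the combined change, the difference between days and between each of 6 pairs of days (normal tests from the deposited estimates, adjusted over all genes), and chromosome medians. The combining steps were tested on simulated data. All 7 members were described whatever their values. Every list is given by its counts, and the named genes of a pathway list are those called on at least 2 days in 1 direction, at most 6 by smallest combined p, plus all receptors and Smads of the shared list; *scw*, *He*, *Yp1*, *repo*, *sog*, *tok*, *sax*, *Smurf*, *Snoo*, *MAN1*, *Hml*, *NimC1* and the other cell type markers are named, after their values were seen, because a count of 5 or fewer, a sum or a missing value turned on them. *Set1* is named as the target. The members and lists were chosen with earlier results of these data known. Alternatives were the scale (the median of genes with a mean count of at least 10, or of ribosomal protein genes), the genes in the adjustment, the adjustment, stricter thresholds, equal weights, days left out and transcript length. Depth limits each value through its standard error. No sequence is shown.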

Additional observations from a re-analysis of the deposited data

Results flagged for a closer look

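On the deposited scale, the change of *babo*, the type I receptor gene, differed between the days of adult age. Its log2 fold change (*Set1* KD over Ctrl KD) was larger on days 3 and 5 than on days 0 and 1 by 0.80 (95% confidence interval 0.39 to 1.21, adjusted p = 0.00398). It was larger on day 5 than on day 0 by 1.02 (95% confidence interval 0.41 to 1.62, adjusted p = 0.0328). On a scale set by ribosomal protein genes the first of these was 0.27 (adjusted p = 0.299). In the derived means, *babo* had 252 normalized counts in *Set1* KD and 218 in Ctrl KD on day 0, and 409 in *Set1* KD and 175 in Ctrl KD on day 5, each day being normalized apart. Summed early germline markers were 0.785 times as high in *Set1* KD as in Ctrl KD on day 0 and 1.23 times on day 5. Summed hemocyte markers were at 1.54 times on day 0 and 1.96 times on day 5, but their median log2 fold change was 0.60 on day 0 and 0.43 on day 5, and only *Pxn* and *crq* of 6 were called on day 5. Of the 8 cyst lineage markers, 3 (*tj*, *Wnt4* and *piwi*) were called higher on days 3 and 5, at 1.12 to 1.60. On each of these days 1 was called lower (*chinmo* at -0.56 on day 3, *so* at -0.48 on day 5). Of all genes, 28.9% and 24.4% were called higher on days 3 and 5, and 28% and 25.6% lower. The summed cyst lineage markers were at 1.10 times on day 3 and 1.12 times on day 5. The part of these cells in the change of *babo* was not tested.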

How the results depend on the processing

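Centring each day on genes with a mean count of at least 10, or adjusting over those genes, changed no call of a member. With a log2 fold change of at least 1.3 required, 1, 1, 3 and 2 of the 7 were called higher on days 0, 1, 3 and 5. Adjusting over genes with a mean count of at least 50 left 1 called on day 0, since *daw* falls under that count on that day. Benjamini-Yekutieli adjustment also left 1 on day 0, with *myo* at an adjusted p of 0.0742, and *Smox* on day 5 at 0.253. Centring on ribosomal protein genes left 1, 3 and 1 called higher on days 0, 3 and 5, and gave 1 called lower on day 3 and 3 on day 5. Shares of all genes called under these settings are not given. The ribosomal centring reversed *Smox* to -0.32 on day 3 and -0.53 on day 5, *Actbeta* to -0.82 on day 3 and *mav* to -0.56 on day 5. Chosen after seeing the data, the same centring of the combined change gave -0.41 for *Smox*, -0.52 for *Actbeta*, -0.30 for *mav* and 0.0094 for *babo*, and for the later minus the earlier days 0.27 for *babo* (adjusted p = 0.299) and -1.29 for *Actbeta* (adjusted p = 2.16e-04). Leaving out each day in turn gave a combined change of 0.21 to 0.41 for *Smox* and of 0.064 to 0.41 for *Actbeta*. For the later minus the earlier days, a choice added after seeing the data, it gave 0.69 to 0.92 for *babo*, with 0 to 1 members called. The cause of these shifts was not tested. Equal weights per day changed no call. No paired analysis was possible because the tables hold no values per library, and leaving out a replicate was not possible for the same reason.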
